A study of Homo sapiens with 4 samples.

Results

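Tissue factor (F3), its inhibitors and the genes of plasminogen activation were followed in human proximal tubular cells (HPTCs) stimulated with IL-1β and empagliflozin (Empa), an inhibitor of the renal glucose transporter SGLT2. The 9 genes were F3, TFPI, TFPI2, THBD, PLAU, PLAUR, PLAT, SERPINE2 and SERPINB2, chosen by name with earlier results of these data known. These genes were read by 13 of the 34127 probes on the array, which carry 25992 gene names in all. Each of 2 cell lines, HK-2 and RPTEC/TERT1, was given 2 arrays, described in the methods as biological duplicates. They are called H1 and H2 (labelled HK-2, replicates 1 and 2) and R1 and R2 (labelled RPTEC/TERT1, replicates 1 and 2) below. HK-2 is a human proximal tubular line immortalised with papillomavirus E6 and E7 and was grown with serum, growth factor and pituitary extract. RPTEC/TERT1 is a human proximal tubular line made immortal by the catalytic telomerase subunit (TERT) and was grown with insulin, transferrin, selenite, growth factor and hydrocortisone. Cells of every array went without serum and supplements for 24 h, given fresh medium and kept for a further 24 h with both agents, Empa at 500 nM and IL-1β at 10 ng/mL. Unstimulated and singly stimulated cells were not analysed here. The values below are thus levels under the combined stimulation and measure the effect of neither agent.

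Blood coagulation starts when tissue factor, a membrane receptor, binds factor VIIa. TFPI, a Kunitz-type inhibitor, blocks that complex together with factor Xa, and thrombomodulin (THBD) turns bound thrombin towards the activation of protein C, an anticoagulant. Plasmin, which dissolves fibrin and helps to degrade matrix, is made from plasminogen by the urokinase-type (PLAU) and tissue-type (PLAT) activators, and serpins hold both in check. The kidney tubule is a known source of urokinase in urine.

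Levels are given on the log2 scale as the processed spot signal over the 75th percentile of its array, so that 0 is the brightness of that percentile. The percentile was between 393 and 748 intensity units, and 59.2% to 64.9% of the spots of an array were well above background. Signals below 2.42% of the percentile were set to that floor (a level of -5.37). With 2 arrays a label, precision is limited throughout. Across 17944 genes the arrays did not pair by label. The Pearson correlation was 0.980 between H1 and R2 and 0.976 between H2 and R1, against 0.865 between the HK-2 arrays and 0.855 between the RPTEC/TERT1 arrays. Genes are not independent replicates, and these correlations run across them. The cell line of an array is therefore named only as its label gives it, and results that compare the labels are also given within a replicate number and without each array.

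Of 22 proximal tubule markers, 14 were well above background on H1, 13 on H2, 11 on R1 and 14 on R2. SLC5A1, CUBN, SLC22A6, SLC7A9, HNF4A and SLC9A3 were below that mark on every array. The summed linear signal of the proximal tubule list, in units of the 75th percentile, was 28.6 on H1 and 23.5 on R2, against 11.4 on H2 and 15.2 on R1. PAX8 and DPP4 carried most of it on H1 and R2, where PAX8 stood at a level of 4.13 and 3.73, against 1.61 on H2 and 2.79 on R1. Other markers of the list went the other way. CDH6 stood at 0.27 on H2 and 0.86 on R1, against -3.26 on H1 and -3.49 on R2, PDZK1 was also higher on H2 and R1, and ENPEP was well above background only there. Of 7 fibroblast markers, 3 were well above background on H2 and on R1, 1 on H1 and 0 on R2. Their summed signal was 1.97 and 1.5 on the first pair of arrays and 0.186 and 0.178 on the other. Genes at the floor enter each list's sum at 0.0242, so the fibroblast sums on H1 and R2 are made of values at or near the floor. DCN and LUM carried it, while COL1A2, COL3A1, PDGFRA and PDGFRB were not well above background on any array. Endothelial markers summed to 0.369 to 0.509 on the 4 arrays. CDH5 was well above background on all 4, at levels of -3.02 (R1) to -2.15 (H1), and ESAM on 3. PECAM1, TIE1 and EMCN were so on 1 array each, and KDR, TEK and CLDN5 on none. Leukocyte markers summed to 1.04 and 0.939 on H1 and R2 and to 1.70 and 2.19 on the other arrays, and distal tubule and collecting duct markers to 0.973 and 1.24 against 0.316 and 0.316. The distal difference came from SLC12A1, at -0.51 on H1 and -0.098 on R2 and at the floor on H2 and R1. UMOD stood at -3.04 (H1) to -2.70 (R2) on the 4 arrays. The part of these markers in the results below was not tested. In bulk RNA, fewer cells of a type and less RNA per cell cannot be told apart.

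The sequences before the start sites of 5 of the genes are shown because they cover the patterns described below: F3 and TFPI2 stayed within 2-fold on the 4 arrays, PLAU and SERPINE2 were high on a pair of arrays, and PLAUR was high on the other pair. Each is the 250 bases before a start site in RefSeq (GRCh38.p14), written 5′ to 3′ on the strand of the gene, with capitals for matches on either strand to 4 motifs spelled out after them. No match overlapped another.
F3, chr1:94541760-94542009, minus strand: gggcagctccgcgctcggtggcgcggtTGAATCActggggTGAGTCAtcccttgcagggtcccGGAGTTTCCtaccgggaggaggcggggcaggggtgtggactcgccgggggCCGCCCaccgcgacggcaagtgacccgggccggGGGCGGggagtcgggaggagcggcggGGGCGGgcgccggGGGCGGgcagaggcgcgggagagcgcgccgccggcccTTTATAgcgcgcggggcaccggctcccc
TFPI2, chr7:93890754-93891003, minus strand: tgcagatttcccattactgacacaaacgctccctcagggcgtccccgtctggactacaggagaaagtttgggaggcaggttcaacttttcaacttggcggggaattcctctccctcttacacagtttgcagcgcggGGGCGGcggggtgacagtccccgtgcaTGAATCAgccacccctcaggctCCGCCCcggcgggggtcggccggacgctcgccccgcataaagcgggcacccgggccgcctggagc
PLAU, chr10:73910882-73911131, plus strand: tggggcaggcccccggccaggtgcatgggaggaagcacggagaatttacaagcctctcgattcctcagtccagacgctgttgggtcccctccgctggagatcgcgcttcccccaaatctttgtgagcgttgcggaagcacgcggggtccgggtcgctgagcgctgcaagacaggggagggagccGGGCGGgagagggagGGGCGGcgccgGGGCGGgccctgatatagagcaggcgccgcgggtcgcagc
SERPINE2, chr2:224038641-224038890, minus strand: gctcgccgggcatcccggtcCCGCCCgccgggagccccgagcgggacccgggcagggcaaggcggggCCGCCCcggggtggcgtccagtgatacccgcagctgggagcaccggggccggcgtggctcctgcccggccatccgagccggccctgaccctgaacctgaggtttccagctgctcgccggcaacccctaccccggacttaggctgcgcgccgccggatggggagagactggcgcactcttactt
PLAUR, chr19:43670170-43670419, minus strand: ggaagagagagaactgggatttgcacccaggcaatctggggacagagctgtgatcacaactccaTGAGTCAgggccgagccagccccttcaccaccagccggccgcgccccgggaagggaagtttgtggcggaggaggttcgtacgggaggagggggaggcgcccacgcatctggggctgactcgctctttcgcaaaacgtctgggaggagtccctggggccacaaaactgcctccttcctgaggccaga

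The F3 sequence held 2 AP-1 matches at -223 and -210, 1 NF-κB-like match at -187, 4 GC boxes and 1 TATA box at -28, counted from the start site. The AP-1 motif was searched as TGANTCA, which 6.57% of 35116 such sequences in RefSeq held. The NF-κB-like motif was searched as GGANTTTCC, held by 1.45% of them. For the GC box the letters were GGGCGG, present in 42.6%, and for the TATA box TATAAA, present in 10.7%. TFPI2 held 1 AP-1 match at -87 and 2 GC boxes. PLAUR held 1 AP-1 match at -186. PLAU held 3 GC boxes between -66 and -35, and SERPINE2 held 2. PLAU and SERPINE2 each have a further RefSeq start site, with 0 and 1 GC boxes and none of the other motifs. TFPI, also higher on H1 and R2, held none of the motifs, and SERPINB2 held 1 AP-1 match at -102 and 1 TATA box at -30. Sequences for TFPI, SERPINB2, THBD and PLAT are not shown. A match describes these letters only.

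F3, the initiator of coagulation, varied least of the 8 genes that had a measured level. Positions of probes are those of the files, on GRCh37, where no gene annotation was used. Its only probe, A_33_P3226832 on chromosome 1 from 94995080 to 94995139, stood at a level of -1.64 on H1, -1.77 on H2, -1.59 on R1 and -1.76 on R2. The labels overlapped, and the arrays of a label differed by 0.13 for HK-2 and by 0.17 for RPTEC/TERT1. F3 was well above background on every array.

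TFPI2, the inhibitor that resembles TFPI but acts mainly on plasmin and related proteases of the matrix, was bright on every array. It is among the genes the study selected on samples that include these, so its presence at a high level is not independent evidence. Probe A_23_P393620, on chromosome 7 from 93516575 to 93516634, stood at a level of 3.40 on H1, 3.97 on H2, 3.06 on R1 and 3.64 on R2. The processed signals behind these levels were 4140, 11715, 4083 and 5331 intensity units in the same order. Replicate 2 was the brighter array within each label, by 1.49-fold in both, and HK-2 was the brighter label within each replicate number, by 1.26-fold in both. Equal gaps within the labels force equal gaps within the replicate numbers, so these are not separate agreements. TFPI2 did not follow the pairing of the arrays across the labels. The smallest gap, 1.18-fold, lay between H1 and R2, but the largest, 1.87-fold, lay between H2 and R1. Among the 16486 genes tested, the 3 whose levels around their own mean were most like those of TFPI2 over the 4 arrays were PPIG, SMIM4 and the transcript THC2621582, with root mean square differences of 0.025, 0.032 and 0.033 on the log2 scale. THC2621582 was at the floor on R1, which sets its value there.

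TFPI, in contrast, was higher on H1 and R2. Its mean over 3 probes was 1.48 on H1, 0.53 on H2, -0.17 on R1 and 2.07 on R2. The probes lie on chromosome 2 from 188329008 to 188329067 (A_33_P3212615), from 188343406 to 188343465 (A_23_P330070) and from 188349518 to 188349577 (A_33_P3258274). Each placed the arrays in the same order, with R2 highest and R1 lowest. The size of the gap depended on the probe. Between the RPTEC/TERT1 arrays it was 6.14-fold for A_23_P330070, which was designed on the shorter transcript form NM_001032281, 4.94-fold for A_33_P3212615, designed on NM_006287, and 3.48-fold for A_33_P3258274. Between the HK-2 arrays the same probes gave 1.99-fold, 2.74-fold and 1.32-fold.

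THBD, the thrombin receptor thrombomodulin, was measured on 2 arrays only. Probe A_23_P91390, on chromosome 20 from 23026807 to 23026866, read 1117 intensity units on H2 and 652 on R1, levels of 0.58 and 0.42. On H1 and R2 it read 9.43 and 9.51 units and was not well above background. Against the floor, THBD was at least 61.9-fold higher on H2 than on H1, and at least 55.3-fold higher on R1 than on R2. Of the cell type markers, DCN and LUM (fibroblast), ENPEP (proximal tubule) and CSF1R (leukocyte) were also well above background on H2 and R1 only. The fibroblast markers COL1A2, COL3A1, PDGFRA and PDGFRB were so on no array, and a link of any marker to THBD was not tested.

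The plasminogen activators ran in opposite directions. PLAT, the tissue-type activator, was read by probe A_23_P82868, on chromosome 8 from 42032812 to 42032871, which is spotted 10 times. Its level was -1.04 on H1, 2.98 on H2, 3.39 on R1 and -0.68 on R2. The spots of an array gave SDs of 0.092 (n = 9), 0.088 (n = 9), 0.20 (n = 10) and 0.090 (n = 10) in that order, which is the technical error of a spot and not a spread between cultures. PLAT was thus 16.2-fold higher on H2 than on H1 and 16.8-fold higher on R1 than on R2.

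PLAU, the urokinase-type activator, was higher where PLAT was lower. Probe A_33_P3306146, on chromosome 10 from 75674614 to 75674673, was not saturated and stood at a level of 2.58 on H1, -1.02 on H2, -0.94 on R1 and 2.12 on R2. By this probe PLAU was 12.1-fold higher on H1 than on H2 and 8.37-fold higher on R2 than on R1. The brighter probe, A_23_P24104, lies from 75677050 to 75677109 and is spotted 10 times. It was saturated on H1 (10 of 10 spots) and R2 (8 of the 8 spots kept), with levels of 7.42 and 7.21, and unsaturated on H2 and R1, with levels of 4.17 and 4.11. These give at least 9.52-fold between the HK-2 arrays and at least 8.54-fold between the RPTEC/TERT1 arrays.

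**Figure D1:**
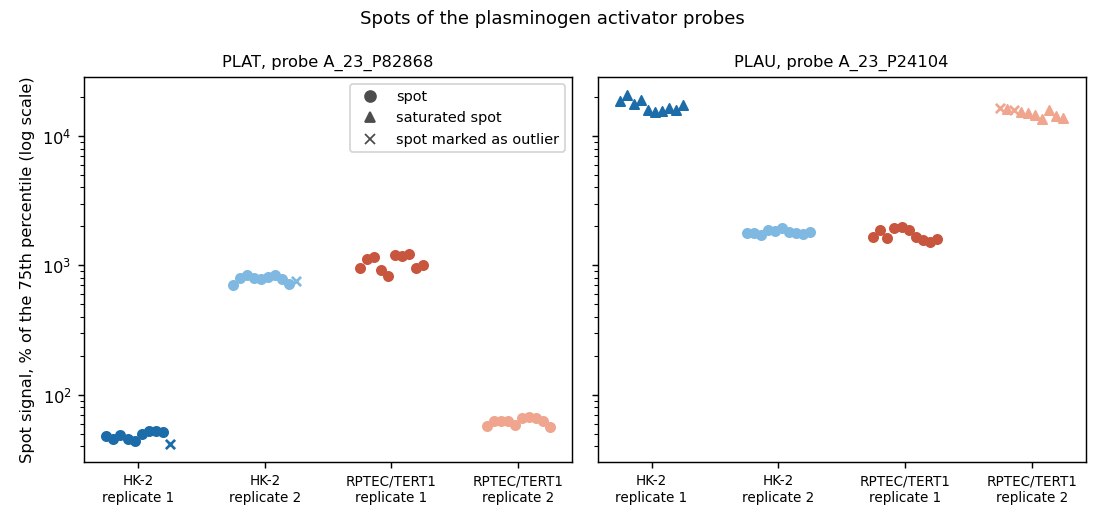
Spot signals of the PLAT probe and of the brighter PLAU probe on the 4 arrays, as percent of the 75th percentile of the array on a log axis. Points are single spots, triangles saturated spots and crosses spots marked as outliers, which were left out of the means. PLAT was low on H1 and R2, the arrays on which PLAU was saturated, and spots of an array lie close together beside the gap between arrays.

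PLAUR, the receptor that holds urokinase at the cell surface, went with PLAT rather than with its ligand. Probe A_23_P16469, on chromosome 19 from 44169498 to 44169557, stood at a level of -0.55 on H1, 0.69 on H2, 0.85 on R1 and -0.52 on R2. The gap was 2.36-fold between the HK-2 arrays and 2.58-fold between the RPTEC/TERT1 arrays, smaller than that of either activator.

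Of the serpins, SERPINE2 (protease nexin-1), which inhibits thrombin and urokinase, followed PLAU. Probe A_23_P50919, whose ends lie 1699 bases apart on chromosome 2 from 224840597 to 224842295, stood at a level of 3.28 on H1, 0.44 on H2, 0.73 on R1 and 2.77 on R2. It was 7.15-fold higher on H1 than on H2 and 4.12-fold higher on R2 than on R1. SERPINB2 (plasminogen activator inhibitor 2) was not well above background on any array. Its probes, A_24_P245379 on chromosome 18 from 61570202 to 61570261 and A_33_P3353525 from 61538974 to 61539033, read between -5.04 and 3.76 intensity units after background subtraction, so no fold is given.

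**Figure D2:**
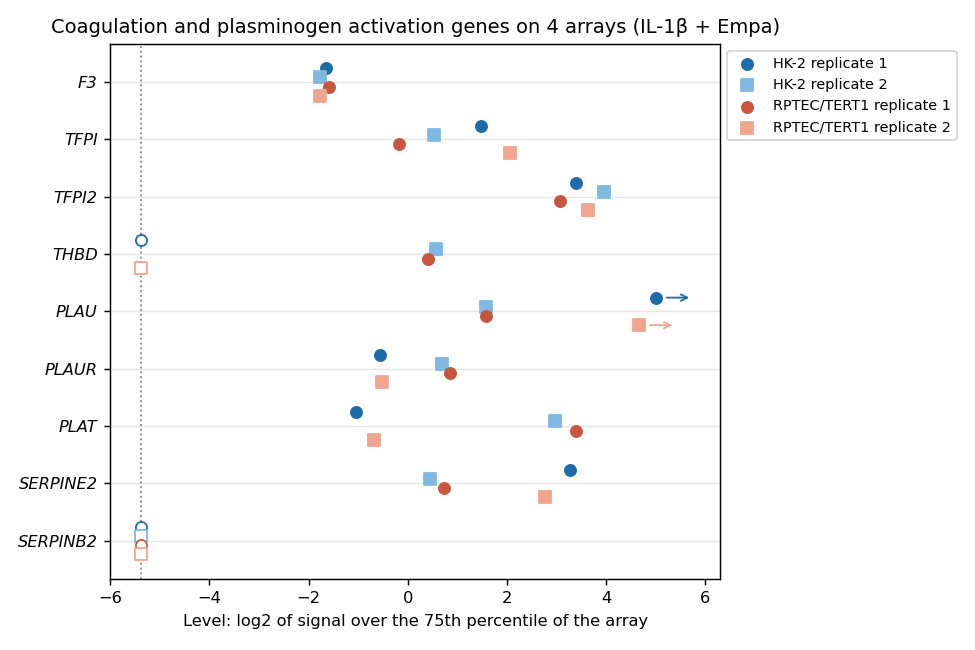
Levels of the 9 genes (vertical axis) on the 4 arrays, as log2 of the processed signal over the 75th percentile of the array. Open symbols are not well above background, the dotted line is the floor at -5.37, and arrows mark PLAU values that are lower bounds because of saturated spots. THBD, PLAT and PLAUR were higher on H2 and R1, TFPI, PLAU and SERPINE2 were higher on H1 and R2, and F3 and TFPI2 stayed within 2-fold.

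Set against all genes, 8 of the 9 passed the filter of being well above background on at least 2 arrays, THBD by exactly those on which it was high, and SERPINB2 did not. Between the HK-2 arrays, 5 of the 8 differed by 2-fold or more, against 34% of the 16486 genes tested. THBD, PLAT and PLAUR were lower on H1 (3 of 8, against 16.3% of all genes) and PLAU and SERPINE2 higher on it (2 of 8, against 17.7%), while TFPI lay below that mark with 1.93-fold. Between the RPTEC/TERT1 arrays, 6 of the 8 did, against 40.4%. TFPI, PLAU and SERPINE2 were higher on R2 (3 of 8, against 22.1%) and THBD, PLAT and PLAUR lower on it (3 of 8, against 18.4%). The median absolute difference of the 8 genes was 2.04 between the HK-2 arrays, beside 0.67 over all genes tested, and 2.14 between the RPTEC/TERT1 arrays, beside 0.79. Each of these compares 1 array with 1 array, and they were not tested. The genes were chosen with earlier results of these data known, and THBD enters these counts and medians through the arrays on which it was high. The counts and medians therefore describe these genes and are no evidence that the set varies more than others. Across the labels, 0 of the 7 genes measured on H1 and R2 differed by 2-fold between them, against 4.9% of all genes, with THBD at the floor on both, and 0 of the 8 between H2 and R1, against 6.78%.

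**Figure D3:**
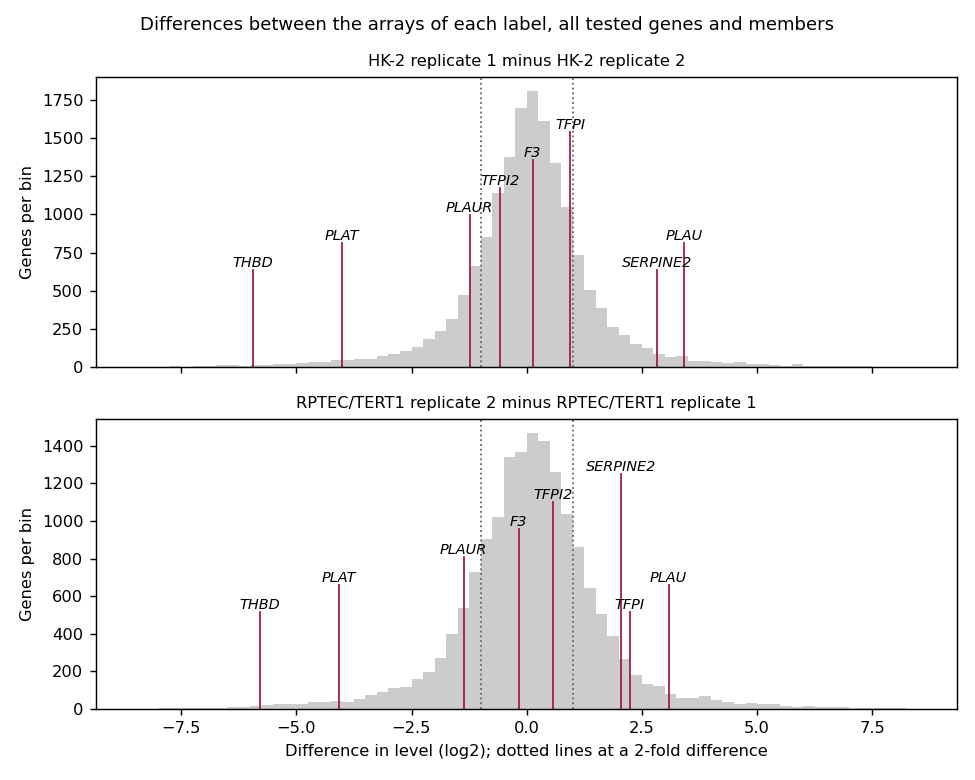
Differences in level (log2, horizontal axis) between the arrays of each label for the 16486 genes tested (grey, genes per bin) and for the 8 genes that passed the filter (red lines). PLAU and SERPINE2 stand to the right and THBD, PLAT and PLAUR to the left in both panels. The values of THBD (floor) and PLAU (saturated spots) are bounds. Heights of the red lines carry no value.

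The comparison the labels allow asks whether HK-2 and RPTEC/TERT1 differ under IL-1β + Empa. For none of the 8 genes did the labelled cell lines differ by more than the spread between replicates. THBD, PLAT, PLAUR, TFPI, PLAU and SERPINE2 followed the pairing of the arrays across the labels (H1 with R2, H2 with R1). Each label holds an array of either pair, so for these genes the spread within a label contains the gap between pairs. For them the fit cannot decide whether the cell lines differ. TFPI2 stood at 3.68 ± 0.41 (SD, n = 2) on the HK-2 arrays and 3.35 ± 0.41 (SD, n = 2) on the RPTEC/TERT1 arrays. The difference was 0.33, with a 95% interval of -1.02 to 1.68 (limma, Benjamini-Hochberg adjusted p = 1). For F3, at -1.71 ± 0.094 and -1.68 ± 0.12 (SD, n = 2 each), it was -0.028 with an interval of -1.16 to 1.11 (limma, adjusted p = 1). These intervals leave room for a 2-fold difference in either gene. The other 6 genes had SDs within a label of 0.67 to 4.21, and differences of -0.38 (PLAT) to 0.17 (PLAU) with standard errors of 0.76 (PLAUR) to 2.90 (THBD) and a limma adjusted p of 1 for each. With limma, 0% of the 16486 genes were called at an adjusted p under 0.05 and 23 (0.14%) had an unadjusted p under 0.05, and 0 of the 8 genes fell in either group. Arrays of the labels did not overlap for 7.18% of all genes tested and for 0 of the 8 genes.

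Within replicate 1, HK-2 minus RPTEC/TERT1 was 3.42 for PLAU, 2.55 for SERPINE2 and 1.65 for TFPI, and -4.43 for PLAT and -1.40 for PLAUR. Within replicate 2 the same differences were -3.09, -2.33, -1.54, 3.66 and 1.20. The PLAU values include a probe saturated on H1 and R2 and are lower bounds in size. THBD was at least 55.3-fold lower on the HK-2 array in replicate 1 and at least 61.9-fold higher in replicate 2. TFPI2, at 0.33 in both, and F3, at -0.049 and -0.0072, kept their direction, although the difference between the labels turned to -0.11 for TFPI2 and to 0.53 for F3 after another background correction (normexp), and to 0.42 and -0.021 after the same correction without the spots of bright local background, all on H1 (8 beside control spots). In each replicate number 6 of the 8 genes differed by 2-fold or more, against 36% of all genes in replicate 1 and 33.7% in replicate 2. The sign turned between the replicate numbers, with 2-fold or more in each, for 6 of the 8 and for 27.3% of all genes tested. With 1 array left out in turn, the difference between the labels ran from 0.046 to 0.62 for TFPI2. It changed sign for the other 7, from -0.11 to 0.059 for F3, from -1.55 to 1.88 for PLAU and from -2.42 to 1.65 for PLAT.

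**Figure D4:**
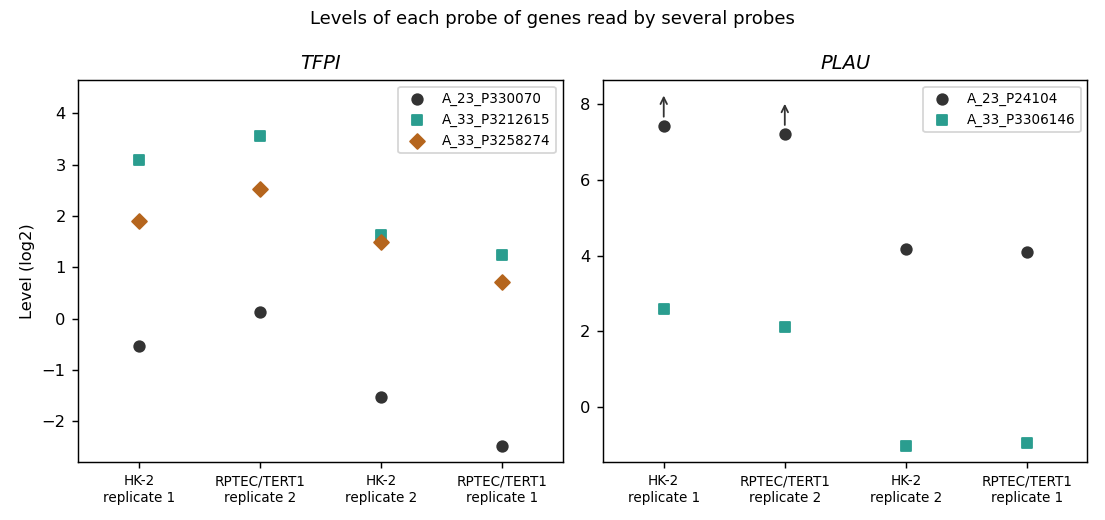
Levels (log2) of each probe of TFPI and PLAU on the 4 arrays, with the arrays ordered by their similarity across all genes. Arrows mark saturated spots, whose level is a lower bound. The 3 probes of TFPI place the arrays in the same order, and both probes of PLAU are higher on H1 and R2. Heights are not comparable between probes.

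Of 41 further genes of coagulation and plasminogen activation, 18 were tested and 20 were not well above background on any array. Among 16 clotting factor genes, F8 and F12 were tested, and prothrombin (F2), F7, F10, VWF and the fibrinogen genes FGA, FGB and FGG did not reach that mark on any array, nor did plasminogen (PLG). Between the labels limma called 0 of the 18, with 0 at an unadjusted p under 0.05. Arrays of 1 label lay 4-fold or more apart in both labels for 6% of the 13787 genes well above background on all 4 arrays and for 1 of the 13 pathway genes among them, F2RL1. F2RL1 is the protease-activated receptor PAR2, which tissue factor complexes can cleave. Its level was 3.58 on H1, 1.18 on H2, 1.16 on R1 and 3.53 on R2, so it was high on the arrays on which PLAU was high.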

How the data were processed

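Gene expression was measured in HPTCs on 1-colour Agilent arrays, 2 for each cell line label, after IL-1β and Empa. The authors deposited spot intensities from Agilent Feature Extraction 9.5.3.1, background-subtracted and detrended within each array and not scaled between arrays. A value table deposited beside them holds log2 values, and the sources used here do not give how these were made. These served as an alternative only, centred on the 75th percentile, and their medians were 8.33, 7.14, 6.75 and 6.72 on H1, H2, R1 and R2, with centring and scale unknown.

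Control spots and outlier spots (1.24% to 1.85% of an array) were left out, and saturated spots were kept. Signals were scaled to the 75th percentile of each array, floored and taken to log2. Replicate spots were averaged, and each gene took the mean of those probes that exceeded background on at least 1 array. The floor was the lowest scaled signal that exceeded background, from the array on which it was highest. A fold against an array below background is a bound. The cell line labels were compared by limma 3.58.1 (R 4.3.3, lmFit and eBayes) in the 16486 genes that exceeded background on 2 or more arrays, with Benjamini-Hochberg adjustment at 0.05. Simulated data with known changes were used to test this step. Transcripts of 11 of the 13 probes carried the same symbol in RefSeq's genes (GRCh38.p14), which list all 9 symbols. Promoter sequences are from RefSeq. A result for 1 further pathway gene is not reported here.

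The genes named for their levels are the 9 members, pathway genes past the threshold or 4-fold apart between the arrays of both labels, and the 3 genes most like TFPI2. F8, F12 and some of the pathway genes below background on every array are named only by whether they were tested or above background. Cell type markers are named from their lists. The members, lists and rules were chosen with earlier results of these data known. Alternatives were normexp correction (offset 50), the deposited log2 values, quantile normalization, other filters on dim genes, the brightest probe, a replicate block and leaving out each array. Replicate 1 of both labels was scanned on 1 day and replicate 2 on another, so the replicate number is also the scan date. Deviations of same-numbered arrays from their label means had a correlation of -0.784 across genes, so these arrays mostly deviated in opposite directions. This restates the pairing of the arrays across the labels, and an effect of the scan date was not tested. No slide held more than 1 of the arrays.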

Additional observations from a re-analysis of the deposited data

Results flagged for a closer look

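Between the replicate numbers, the difference HK-2 minus RPTEC/TERT1 took opposite signs with at least 2-fold on each side for 6 of the 8 genes tested, beside 27.3% of all 16486 genes tested. Each value compares 1 array with 1 array, and whether the differences differ was not tested. For PLAT the difference was -4.43 within replicate 1 and 3.66 within replicate 2, and for PLAU it was 3.42 and -3.09. The PLAU values are lower bounds in size, since its brighter probe was saturated on H1 and R2. Its unsaturated probe gave 3.53 and -3.14. For THBD it was -5.79 and 5.95 with values below background at the floor. SERPINE2 gave 2.55 and -2.33, TFPI 1.65 and -1.54, and PLAUR -1.40 and 1.20.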

How the results depend on the processing

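Under each alternative run, limma called 0 of the 8 genes tested, 0 of the pathway genes and 0 genes in all between the labels, with 3 to 240 genes at an unadjusted p under 0.05. The number of members 2-fold or more apart stayed within 1.5 times under each alternative run. SERPINB2 has no value, since it is below background. With the replicate number as a replicate block, limma called 0 genes, and 5 lay at an unadjusted p under 0.05, so no call changed with the block. With the crossed replicate block, chosen after seeing the data, the count was 0, with 177 at an unadjusted p under 0.05. Normexp without the spots of bright local background, all on HK-2 replicate 1 (8 beside control spots), and the fit without saturated probes were also chosen after seeing the data and changed no direction or call.

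The differences between the labels, none of them called, changed sign in 27 of 96 combinations of gene and alternative, and the lowest adjusted p was 0.9996. After normexp correction they were -0.23 for TFPI, -0.11 for TFPI2, 0.53 for F3, -0.36 for PLAU, 0.015 for PLAT, 0.11 for PLAUR and -0.39 for SERPINE2. Without those spots the same correction gave 0.030, 0.42, -0.021, 0.17, -0.29, -0.017 and 0.13 in this order, so the 7 sign changes rested on them. In the deposited log2 values they were -0.060 for TFPI, 0.29 for F3, -0.029 for PLAU, 0.023 for PLAUR and -0.055 for SERPINE2. With the brightest probe TFPI was at -0.040. The cause of the changes in the deposited values and with the brightest probe was not tested. With 1 array left out, they ran from -1.06 to 1.18 for TFPI, from -2.89 to 3.06 for THBD, from -0.11 to 0.059 for F3, from -1.55 to 1.88 for PLAU, from -2.42 to 1.65 for PLAT, from -0.78 to 0.58 for PLAUR and from -1.31 to 1.53 for SERPINE2. That fit takes the lone array to have the spread of the other label. Signal over background limits THBD on 2 arrays and SERPINB2 on all 4, and saturation limits PLAU on 2.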
